A study of Danio rerio with 6 samples.

Results

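The odorant receptors of the or42 and or70a subfamilies were examined in the olfactory rosettes (the folded sensory epithelium of each nostril) of adult zebrafish (Danio rerio). The members are all genes whose symbol in the array's probe annotation starts with or42 or or70a. This gave 13 genes, each with 1 probe, of the 5239 genes that had a symbol of their own: 10 of the or42 subfamily and 3 of or70a. The subfamilies were chosen on the difference between mutant and wild-type arrays in these same data, so that difference is given here as a description without a test of its own. The 10 other odorant receptor genes on the array served as the background.

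RNA was taken from 3 samples of homozygous Rag1 mutants and from 3 samples of their wild-type siblings, all aged 1 to 2 years, of mixed sex and untreated, and each sample was hybridised to 1 array in 1 colour. The Rag1 protein is part of the enzyme that joins the gene segments of antigen receptors, and fish without its function lack mature T and B cells. Neither the mutant allele nor the number of fish per sample is given in the labels, so the spread between arrays may be technical. Mutant array 2 is named a mutant by its title and strain field while its source field reads wild type, and the receptors' median differences and count of calls are also given without it.

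Odorant receptors are seven-transmembrane proteins on the cilia of olfactory sensory neurons. An odour bound to the receptor activates an olfactory G protein and an adenylyl cyclase, and the cyclic AMP formed opens a cyclic nucleotide-gated channel, of which Cnga2 is a subunit. A mature neuron usually expresses a single receptor gene out of the whole repertoire, so the transcript of any 1 receptor comes from a small share of the neurons. Receptor genes lie in tandem arrays of close relatives. In RNA from a whole organ, fewer neurons that express a receptor and less RNA per neuron cannot be told apart. The odours that bind each receptor described here are not given in the sources used.

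Normalized brightness is given on the log2 scale throughout, 1 value per array, so that a difference of 1 is a factor of 2. The median gene spot was 4.75 (wild-type array 1) to 7.21 (wild-type array 3) times as bright as the blank spots, so ratios to the blank spots differ between arrays for all genes. Arrays had correlations across probes of 0.983 to 0.987 within the mutants, 0.981 to 0.988 within wild type and 0.963 to 0.973 between the groups. The probe of rag1 itself read 6.68, 6.74 and 11.92 on mutant arrays 1 to 3 and 6.48, 6.71 and 6.64 on wild-type arrays 1 to 3. The third mutant reading came from a spot with uneven pixels (pixel SD 3.18 times the pixel mean, against 0.151 to 0.195 on the other arrays), so rag1 checks no label. The tissue label was borne out by transcripts of olfactory neurons, with cnga2 at 17.4 to 71.9 times the blank spots and gng13b, a G protein subunit, at 151 to 379 times.

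All 13 receptors exceeded the 95th percentile of the blank spots on all 6 arrays and so entered the fit, and none of their spots was saturated. Of the 13, 12 were lower in the mutants and 1, or42c3, differed by 0.02. The median difference over the 13 was -0.99, against -0.46 over the 10 other odorant receptors and 0.01 over all 15611 probes tested. Without mutant array 2 the median was -1.05 over the 13 and -0.61 over the 10 others. The 3 mutant arrays lay below all 3 wild-type arrays in 10 of the 13, where 12.8% of all probes did. Limma's fit over all probes with Benjamini-Hochberg adjustment called 7 of the 13 lower at an adjusted p of 0.05, where it called 2.36% of all probes lower. The 7 were or42b2, or42c2, or42c4, or42d2, or42d3, or42e1 and or70a2. Because the subfamilies were picked on this contrast, nothing is read from either count. The count of 7 was 2, 5 and 2 when mutant array 1, 2 or 3 was left out, and 5, 4 and 0 when wild-type array 1, 2 or 3 was. Calls over all probes, 747 with all 6 arrays, also dropped in these smaller fits. They were 247, 494 and 298 without mutant array 1, 2 or 3, and 598, 296 and 299 without wild-type array 1, 2 or 3.

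**Figure D1:**
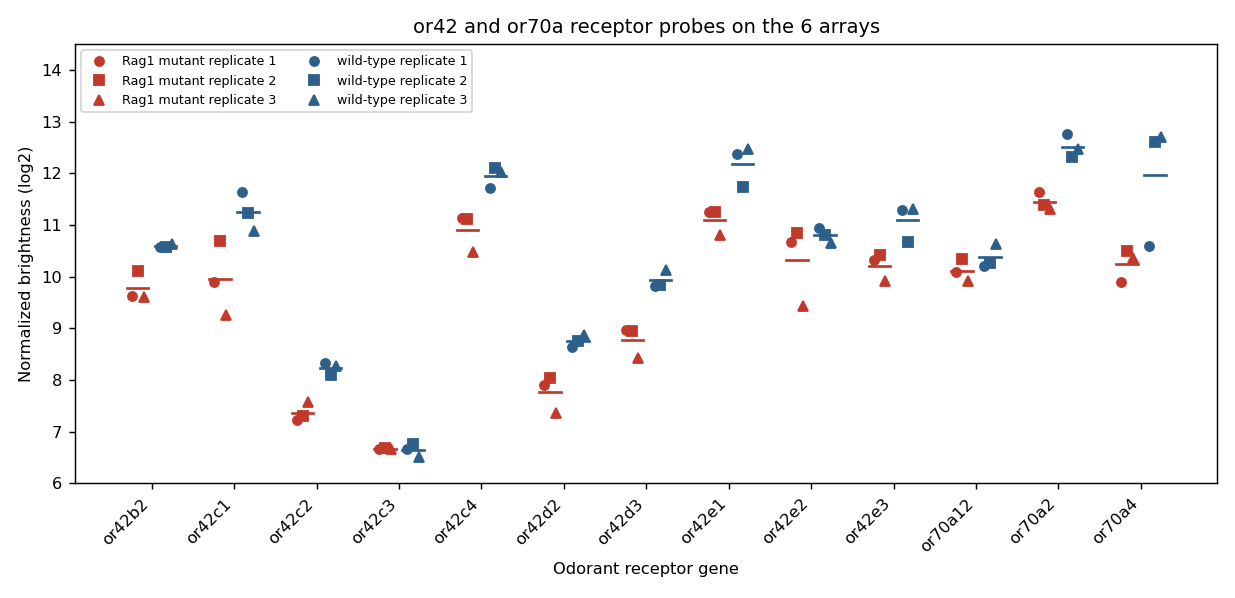
Normalized brightness (log2, y axis) of the 13 receptor probes (x axis) on each array, mutants in red to the left of wild type in blue, with a symbol for each replicate and a line at each group mean (n = 3). In 10 genes every mutant point lies below every wild-type point, and or42c3, or42e2 and or70a12 are the exceptions.

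The or42c genes ran from a 2.45-fold difference to none. or42c1 read 9.90, 10.70 and 9.26 on mutant arrays 1 to 3, against 11.63, 11.23 and 10.88 on wild-type arrays 1 to 3. The groups did not overlap, but both were spread wide (SD 0.72 in mutants and 0.38 in wild type), and the difference of -1.29 (SE 0.36, n = 3 per group) was -1.67 without mutant array 2 and -0.95 without mutant array 3. or42c4 read 11.13, 11.11 and 10.48 in mutants and 11.71, 12.09 and 12.03 in wild type, a difference of -1.04 (SE 0.21). Mutant array 3 was the lowest of the 6 for both genes.

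or42c2 lay near the blank spots, at 1.47 to 1.84 times the blank spots on the mutant arrays and 2.31 to 3.27 times on the wild-type arrays. Its log2 values were 7.22, 7.30 and 7.57 in mutants and 8.33, 8.09 and 8.28 in wild type (difference -0.87, SE 0.14). Here mutant array 3 was the highest of the mutants, unlike for most of the other receptors. or42c3 read 6.67, 6.69 and 6.66 in mutants and 6.67, 6.77 and 6.52 in wild type (difference 0.02, SE 0.12). This probe was 1.21 to 1.24 times the blank spots on mutant arrays and 1.21 to 1.29 times on wild-type arrays, too close to them for a fall to be measured.

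Both or42d genes had groups that did not overlap. or42d3 read 8.96, 8.95 and 8.42 in mutants and 9.82, 9.84 and 10.14 in wild type, a difference of -1.16 (SE 0.18), or 2.23-fold. or42d2 read 7.90, 8.04 and 7.35 in mutants and 8.64, 8.75 and 8.88 in wild type, a difference of -0.99 (SE 0.19). Its spot was near the blank spots in mutants, at 1.65 to 2.28 times, against 2.83 to 4.67 times on wild-type arrays. The difference of or42d2 was -0.77 with no background correction and -1.20 with the offset on undivided brightness. Mutant array 3 was the lowest and wild-type array 3 the highest for both or42d genes. Among the 13, these 2 genes followed the mean of the other members most closely over the 6 arrays (r = 0.99 for each, a description over arrays that all receptors share).

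The or42e genes differed among themselves. or42e1 read 11.24, 11.24 and 10.81 in mutants and 12.37, 11.73 and 12.46 in wild type (difference -1.09, SE 0.23), and or42e3 read 10.32, 10.41 and 9.91 in mutants and 11.28, 10.67 and 11.31 in wild type (difference -0.87, SE 0.22). In both, wild-type array 2 lay nearest the mutants and without it the differences were -1.31 for or42e1 and -1.08 for or42e3. or42e2 read 10.66, 10.85 and 9.43 in mutants and 10.93, 10.81 and 10.66 in wild type, so the groups overlapped. Its difference of -0.49 (SE 0.35) rested on mutant array 3 and was -0.05 without it.

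or42b2, the only or42 gene on the array from outside the or42c, or42d and or42e genes, read 9.62, 10.11 and 9.62 in mutants and 10.57, 10.58 and 10.63 in wild type. The wild-type arrays lay within an SD of 0.03 of each other, the mutants had an SD of 0.28, and the difference was -0.81 (SE 0.16), or 1.76-fold. Mutant array 2 was the nearest to wild type, and without it the difference was -0.97.

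The 3 or70a genes gave the largest difference of the 13 and also 1 of the smallest. or70a4 read 9.89, 10.50 and 10.36 in mutants and 10.59, 12.60 and 12.71 in wild type. Wild-type array 1 was close to the mutants and about 2 log2 units below the other wild-type arrays, which gave an SD of 1.19 in wild type against 0.32 in mutants. The difference was -1.72 (SE 0.53), and it was -2.41 with wild-type array 1 left out and -1.35 with array 3 of wild type left out. On the unnormalized scale or70a4 exceeded the blank spots 6.18-, 10.3- and 9.07-fold on mutant arrays 1 to 3, and 8.96-, 43.2- and 60.7-fold on wild-type arrays 1 to 3. The median gene spot did so 5.09-, 5.61- and 5.55-fold on the same mutant arrays and 4.75-, 5.53- and 7.21-fold on the wild-type arrays. Its pixel SD was 0.310 to 0.465 of the pixel mean on the 6 arrays, within the range of 0.134 to 0.699 over all 13 receptors.

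or70a2 read 11.64, 11.39 and 11.30 in mutants and 12.76, 12.32 and 12.46 in wild type, and had the smallest spread of the 3 relative to its difference of -1.07 (SE 0.16). or70a12 read 10.09, 10.34 and 9.91 in mutants and 10.21, 10.27 and 10.64 in wild type. These groups overlapped, and the difference of -0.26 (SE 0.17) was -0.12 without wild-type array 3, -0.15 without mutant array 3 and -0.37 without mutant array 2. Within both subfamilies genes at least 2-fold lower stood beside close relatives with overlapping groups. Of these relatives or42c3 was too dim for a fall to be measured, and differences between members were not tested.

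Of the 13, 6 were at least 2-fold lower (or42c1, or42c4, or42d3, or42e1, or70a2 and or70a4), a size reached by 1.62% of all probes. The members on either side of that size were or42c4 (-1.04) and or42d2 (-0.99). These 6 were the genes listed when the subfamilies were picked on this contrast, so nothing is read from their count. A probe of a receptor family may also detect relatives of its target, which was not tested here.

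**Figure D2:**
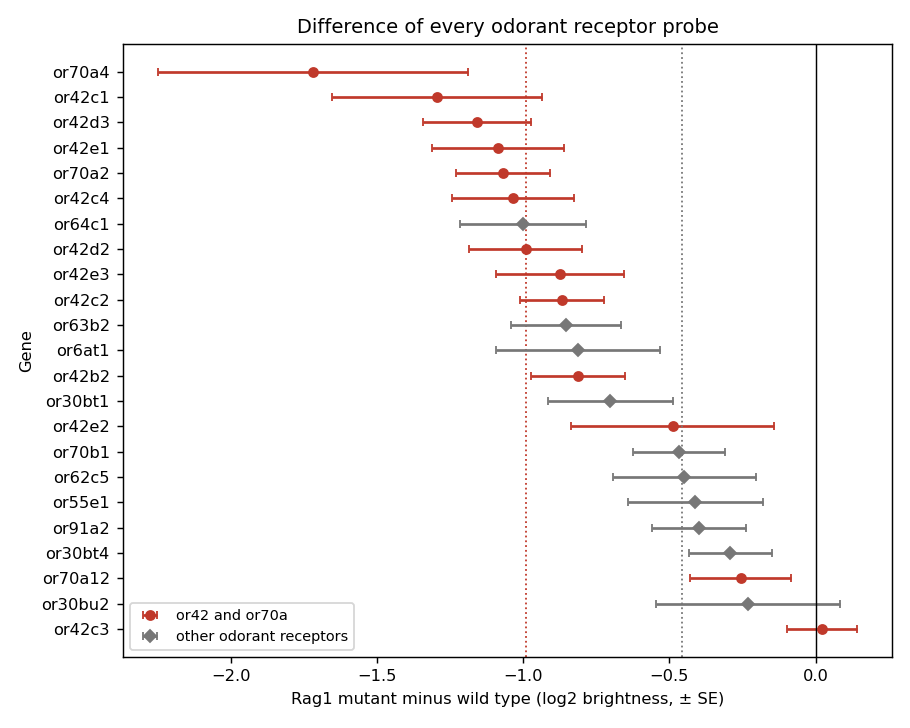
Difference between mutant and wild type (x axis, log2 brightness, bars are the SE of the fit, n = 3 per group) for the 23 odorant receptor genes (y axis), or42 and or70a in red and the others in grey. Dotted lines mark the medians, -0.99 for the 13 and -0.46 for the 10, and the sets interleave.

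The 10 other odorant receptors were also lower in the mutants, with or30bu2 at -0.23 the smallest difference, where 48.6% of all probes were below 0. In 7 of the 10 all mutant arrays lay below all wild-type arrays, where 12.8% of all probes did. None rose. The 3 with the largest differences were or64c1 (mean 10.99 in mutants and 11.99 in wild type, SE of the difference 0.22), or63b2 (-0.85, SE 0.19) and or6at1 (-0.81, SE 0.28), with adjusted p in limma's fit of 0.0455, 0.0476 and 0.150. or64c1 read 10.66, 11.35 and 10.97 in mutants and 11.68, 12.18 and 12.13 in wild type. Its call was lost when mutant array 1 or 3 or wild-type array 2 or 3 was left out, and that of or63b2 was lost without any 1 of the arrays. Both calls were also lost with no background correction, with local background subtracted and with a print block kept that was misread by 1 row on 1 array and is otherwise left out (adjusted p 0.0550 to 0.0618 for or64c1 and 0.0584 to 0.0665 for or63b2 in limma's fit). The relative named most alike, or70b1, lies outside the or70a genes and was at -0.47 (SE 0.16). The medians of -0.99 and -0.46 were not tested against each other, since the 13 were chosen on this contrast. Among the tested probes with a single symbol, olfcb1 was the only receptor found from another chemoreceptor family. It read 6.85, 6.62 and 6.74 in mutants and 6.92, 6.75 and 6.50 in wild type, close to the blank spots.

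The arrays of a group differed in how low or high the receptors stood. Mutant arrays 1, 2 and 3 had 11, 10 and 12 of the 13 members below every wild-type array, with a median of -0.88, -0.72 and -1.37 from the wild-type mean. Of the 10 other odorant receptors they had 8, 8 and 9 below every wild-type array, with a median of -0.62, -0.25 and -0.66. The share of all probes on single arrays was not computed, and nothing is read from these counts. Mutant array 3 was the lowest of the mutants in 11 of the 13 and in 6 of the 10 other receptors, and mutant array 2 the highest in 8 of the 13 and in 9 of the 10. Centred on each gene's mean, the or42 genes stood at -0.35, -0.18 and -0.76 on mutant arrays 1 to 3 and at 0.48, 0.34 and 0.46 on wild-type arrays 1 to 3. The or70a genes stood at -0.57, -0.36 and -0.59 in mutants and 0.08, 0.62 and 0.83 in wild type. The low or70a mean on wild-type array 1 came mostly from or70a4, since or70a2 was at its highest on that array. The other odorant receptors stood at -0.37, -0.07 and -0.41 in mutants and at -0.05, 0.51 and 0.39 in wild type. After the group means were taken out, 10 of the 13 members had a positive correlation with the mean of the other members over the 6 arrays, and or42c2 (-0.65), or42c3 (-0.23) and or70a4 (-0.14) had a negative one. The other odorant receptors had 0.01 (or63b2) to 0.83 (or62c5) with the mean of the 13. The share of all probes was not computed, so nothing is read from this count.

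**Figure D3:**
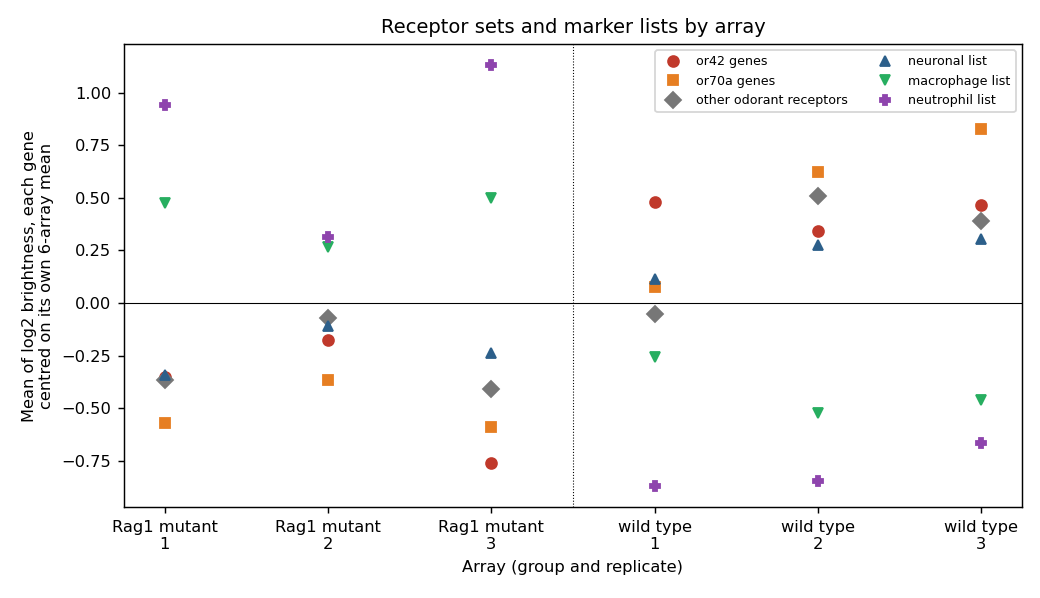
Mean log2 brightness on each array (x axis), each gene centred on its own mean over the 6 arrays (y axis), for the or42 genes, the or70a genes, the other odorant receptors and 3 marker lists. The or42 genes lie between -0.76 and -0.18 on the mutant arrays and between 0.34 and 0.48 on the wild-type arrays, the macrophage and neutrophil lists lie on the opposite side of 0, and mutant array 2 is the nearest to 0 of the mutants for all 6 sets.

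In the authors' deposited table, which gives each probe as a ratio to about its own median over the 6 arrays, the same 10 members had mutant arrays that all lay below the wild-type arrays. That table holds the same arrays on another scale, and the share of all its probes was not computed, so nothing is read from this count. In it or42b2 stood at 0.621, 0.858 and 0.624 on mutant arrays 1 to 3 and at 1.14, 1.19 and 1.23 on wild-type arrays 1 to 3.

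All 13 receptor probes lay in the first 2 rows of their print blocks, as did 9 of the 10 other odorant receptors. Over all 1816 probes tested in those rows the median difference was 0.01, and with the arrays centred on these rows the median of the 13 was -1.02.

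The genes lie in 3 groups, each on a chromosome of its own in assembly GRCz12tu, whose annotation gives the order used here. The or42c, or42d and or42e genes form a run of 11 with no other protein-coding gene starting between the first and the last, and 9 of the 11 had a probe. In order they were or42e1 (-1.09), or42e3 (-0.87), or42d3 (-1.16), or42c1 (-1.29), or42c3 (0.02), or42c4 (-1.04), or42e2 (-0.49), or42d2 (-0.99) and or42c2 (-0.87), with or42d1 and or42c5 not measured here. The 2 smallest differences of the run, of the dim or42c3 and of or42e2, each had neighbours on both sides with differences of -0.99 or more in size. or42b2 closes a group of 10 genes that holds the or42a genes, and it alone was measured there. Of the 14 or70a genes, or70a12 and or70a2 lie side by side at 1 end of their group and differed by -0.26 and -1.07, and or70a4 (-1.72) is the sixth from that end.

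**Figure D4:**
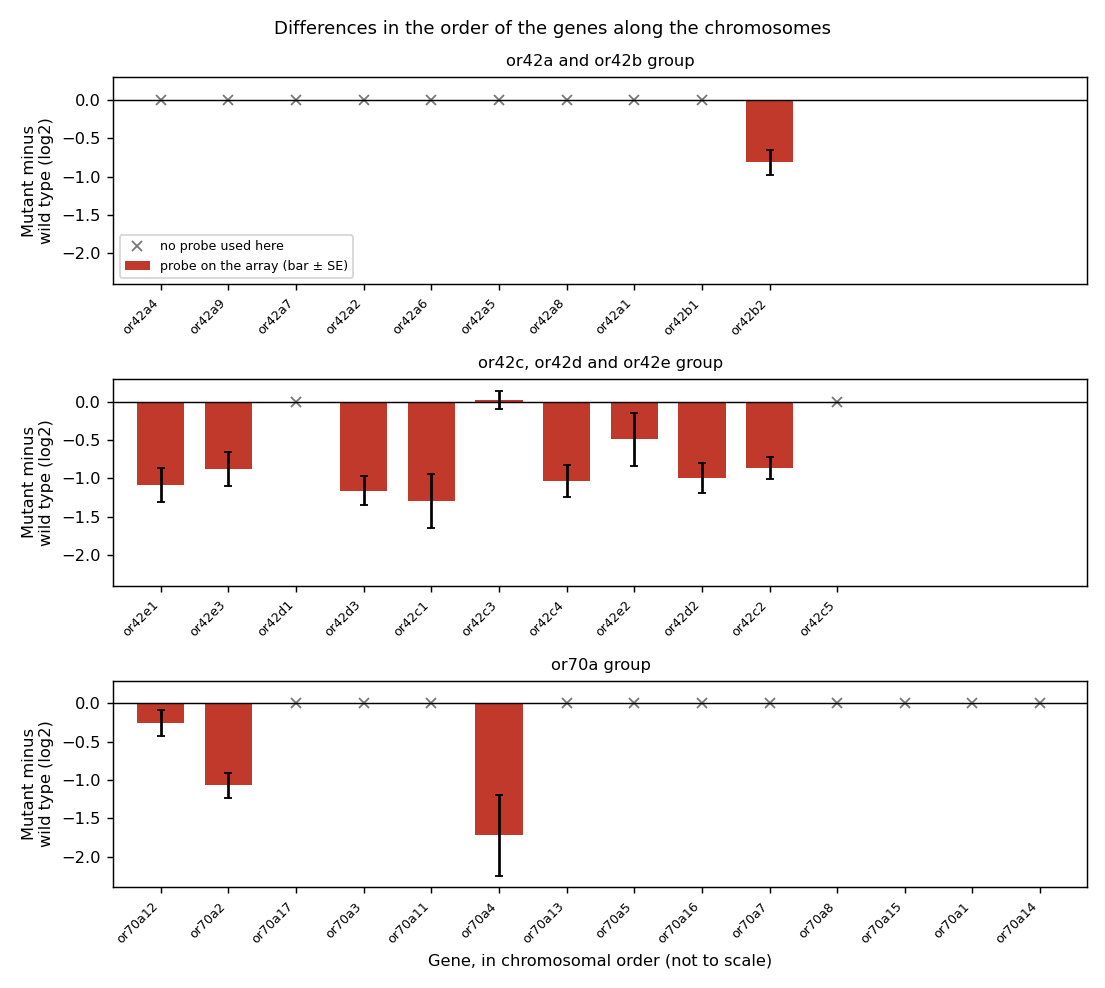
Difference between mutant and wild type (y axis, log2 brightness, bars with the SE, n = 3 per group) for the or42 and or70a genes in their order along the chromosomes (x axis, not to scale), with crosses for genes that had no probe here. In the run of or42c, or42d and or42e genes 8 of 9 bars point down, between -1.29 and -0.49, and or42c3 is at 0.02.

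Other genes of the pathway were taken from 3 lists. The lists were chosen with earlier results of these data known, so nothing is read from their counts. Of 10 measured genes of olfactory transduction 8 were below 0 (median -0.28), where 48.6% of all probes were. Of the 10, 2 fell, where 2.36% of all probes did. The channel gene cnga2 fell by 1.19 (SE 0.16, limma adjusted p = 0.0109) and gng13b by 0.69 (SE 0.15, limma adjusted p = 0.0453). Among 17 measured neuronal genes 16 were below 0 (median -0.39), where 48.6% of all probes were. The 1 above 0 was stmn1a (0.48, SE 0.19, limma adjusted p = 0.191). Of the 17, 3 fell, where 2.36% of all probes did. These were cplx2a, which regulates vesicle fusion (-1.26, SE 0.23, limma adjusted p = 0.0288), the synaptic vesicle gene sypa (-1.08, SE 0.20, limma adjusted p = 0.0293) and the synuclein gene sncb (-0.55, SE 0.12, limma adjusted p = 0.0475). With any 1 array left out, cnga2 kept its call, while gng13b and sncb lost theirs each time. The call of gng13b was also lost with the misread print block kept (limma adjusted p = 0.0561) and with the offset on undivided brightness (limma adjusted p = 0.0613), and that of sncb under 5 of the 11 other processing settings. The call of cplx2a was lost without mutant array 1 or 3 or wild-type array 2 or 3, and that of sypa without mutant array 1 or 3 or wild-type array 1 or 3.

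The third list held 28 genes that in mice act on the choice of a receptor gene or in the chromatin of receptor genes, and 12 were measured. Of the 12, 7 were below 0 (median -0.20, or -0.11 without wild-type array 2), where 48.6% of all probes were. The 1 that fell was ehmt1b, which encodes a histone methyltransferase (-0.96, SE 0.20, limma adjusted p = 0.0416), where 2.36% of all probes fell. This call was lost without any 1 of the arrays, with no background correction, with local background subtracted and with the misread print block kept. ebf2, a transcription factor of olfactory neurons, was at -0.43 (SE 0.13, limma adjusted p = 0.108), from a spot 1.82 to 2.84 times as bright as the blank spots.

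The 8 named genes whose values over the 6 arrays were most like the mean of the 13 receptors, among 5682 probes with a symbol of their own, were neurod4 (Pearson r = 0.992), tspan7 (0.988), dennd6b (0.987), kifap3b (0.987), otx1 (0.983), si:ch211-269c21.2 (0.981), efcab11 (0.979) and trac (0.978). With the group means taken out the r was 0.934 for neurod4, a neurogenic transcription factor gene, 0.967 for the tetraspanin gene tspan7, 0.880 for the homeobox gene otx1 and 0.770 for trac, a constant gene of the T-cell receptor. For the rest it was 0.881 for dennd6b, 0.947 for kifap3b, 0.835 for si:ch211-269c21.2 and 0.958 for efcab11. The members were chosen on the difference between the groups, so genes that are lower in the mutants have a high r by construction. The 8 genes were ranked on the r over the 6 arrays, which also holds the deviations from the group means. The r with the group means taken out is therefore no independent check. The 8 genes had differences from -1.10 (trac) to -0.43 (efcab11). These correlations describe 6 arrays that all genes share. Among the other odorant receptors r ranged from 0.348 for or30bu2 to 0.930 for or70b1, and or70b1 stood at rank 94.

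Marker lists of macrophages and neutrophils were higher in the mutants. All marker lists were also chosen with earlier results of these data known, so nothing is read from their counts. Of 10 macrophage genes 5 rose (lcp1, mpeg1.1, lgals9l1, spi1b and csf1ra, list median 0.96), where 2.43% of all probes did, and the mean of the list, each gene centred on its own mean, was 0.27 to 0.50 on mutant arrays and -0.52 to -0.26 on wild-type arrays. The brightest macrophage genes, cd74a (0.01), apoeb (-0.06) and cd74b (0.15), read 15.7 to 16.0 on every array. The same reading of 15.998 was found for cd74a on mutant arrays 1 and 3 and wild-type arrays 1 and 2, and for apoeb on wild-type array 3. Whether their spots were saturated was not tested, so the small differences of these genes are not read as a lack of change. Of 6 measured genes on the list drawn up for neutrophils 4 rose (lyz, mpx, alox5ap and cpa5, list median 1.69), where 2.43% of all probes did. Whether the listed genes, cpa5 and nccrp1 among them, are particular to neutrophils was not tested, so the list is not a measure of neutrophils alone. The list mean was 0.31 to 1.13 in mutants and -0.87 to -0.66 in wild type. In the same list nccrp1 went the other way without a call (-0.71, SE 0.21, limma adjusted p = 0.105). All its mutant arrays lay below all its wild-type arrays. Of 9 genes of red blood cells 1 rose (cahz, list median 0.49), where 2.43% of all probes did. The list mean was -0.09 to 0.50 in mutants and -0.34 to -0.21 in wild type. Mutant array 2, the mutant array with the highest receptors in 8 of 13 genes, also had the lowest means of the neutrophil and macrophage lists among the mutants. Genes of the surface epithelium were at a median of -0.10 (16 genes, and 0.01 without mutant array 1). Of the 16, pkp1b alone fell, where 2.36% of all probes did. Genes of motile cilia were at -0.08 (4 genes, none called, -0.21 without mutant array 2 and 0.02 without mutant array 3). The part of these cells in the receptor differences was not tested.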

How the data were processed

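Total RNA of 3 Rag1 mutant and 3 wild-type samples had been labelled by in vitro transcription, stained with Alexa647-streptavidin and read in 1 colour, per the labels' protocols. The deposited scanner files hold the raw intensity of each of 19200 spots and its local background, per the file headers. The authors also deposited a table that holds each probe as a ratio to about its median over the arrays, a scale read from its values. Its background handling and array scaling are not stated in the labels or headers. Its columns had medians of 0.955 to 1.03 and correlations of 0.904 to 0.960 with their own arrays.

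Intensities were divided by 100, background-corrected (normexp, offset 50), quantile normalized and taken as log2. A print block of 400 spots that was read 1 row out of place on 1 array (r with the other arrays 0.241 in place and 0.981 when moved by 1 row) was left out on all arrays and held no odorant receptor. Kept were 15611 of 15885 probes, those that exceeded the 95th percentile of blanks on each of the 3 arrays of either group. They were compared with limma 3.58.1 in R 4.3.3 (lmFit, eBayes, Benjamini-Hochberg adjustment, threshold 0.05). Replicates are separate samples by their titles, and nothing says that they came from separate fish, so p-values measure the spread between these samples. Precision is limited by there being 3 arrays per group.

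The platform annotation, updated by gene ID, gave 5773 probes a single symbol and 73 several, and probes with several were not named. The members and lists were chosen with earlier results of these data known. Named were all or42 and or70a genes, the 3 largest differences among other odorant receptors, genes past the threshold in the 3 neuronal lists with cnga2, gng13b and ebf2, and the 8 genes most like the members' mean profile. Genes past the threshold in the other lists were named after their values were seen. Alternatives changed the background correction, normalization, dim-probe filter, misread block, offset, variance trend, source of values and each array in turn.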

Additional observations from a re-analysis of the deposited data

How the results depend on the processing

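With 11 other settings of background, normalization, filter, misread block, offset, variance trend, source of values and centring, limma called 601 to 947 probes, against 747 as reported, and 5 to 10 of the 13 receptors, against 7. Median scaling, the authors' deposited table and centring on print rows 1 and 2 (chosen after seeing the data) each called 10, adding or42c1, or42e3 and or70a4. With 1 of the 6 arrays left out, 247 to 598 probes and 0 to 5 receptors were called. Those fits have fewer arrays. The median difference of the 13 was -1.08 to -0.82 over the 17 alternatives, and that of the 10 other odorant receptors -0.61 to -0.40. Of 221 differences of single members under the alternatives, 4 moved by over 1 SD between replicates, all of or42c2 (-1.13 to -0.64). These came with no background correction (-0.64), local background subtracted (-0.71), the authors' deposited table (-0.69) and the offset on undivided brightness (-1.13). The cause was not tested. Of the 221, 16 were above 0, all of or42c3. No direction of another member changed. cnga2 fell under all 17 alternatives (limma adjusted p 0.00166 to 0.0454). Of the same 17, the call was lost under 4 for cplx2a and sypa, 7 for or64c1, 8 for gng13b, 9 for or63b2 and ehmt1b and 11 for sncb, each in the same direction. Signal over background limits or42c3, or42c2 and, on the mutant arrays, or42d2, the members nearest the blank spots. No paired analysis was possible because the titles of the groups share only the number 2.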
